A study of Saccharomyces cerevisiae with 8 samples.

Results

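Non-coding transcripts that start or end close to the telomeres of budding yeast were followed across strains that differ in the silencing protein Sir3. They are the rows typed XUT, SUT or CUT on chromosomes I to XVI whose nearer edge lies under 30 kb from a chromosome end, with the far end of each chromosome taken as the last position of any row. This gave 298 of 11436 rows in the whole table, or 298 of the 3359 XUT, SUT and CUT rows, and their levels played no part in the choice. Total RNA of exponentially growing *Saccharomyces cerevisiae* in the W303 background was sequenced in 8 libraries, 2 for each of 4 strains. GPD-SIR3 overexpresses SIR3, named for the strong constitutive GPD promoter. GPD-SIR3-A2Q overexpresses in the same way a SIR3 with the point mutation A2Q, SIR3Δ lacks SIR3, and WT is wild type. Nothing in the labels tells whether a strain's pair of libraries stems from different cultures or clones. The p-values therefore reflect the spread of these samples alone, which may be technical. Levels are read counts that the authors scaled to 1 common sum over genes, called scaled counts here.

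Sir3 binds nucleosomes and, with Sir2 and Sir4, forms silent chromatin that spreads inward from telomeres and covers the silent mating-type cassettes. The 3 classes of non-coding RNA differ in how they are removed. Cryptic unstable transcripts (CUTs) are terminated by the Nrd1, Nab3 and Sen1 complex and degraded by the nuclear exosome with its subunit Rrp6. Stable unannotated transcripts (SUTs) last longer and are seen in normal cells. Xrn1-sensitive unstable transcripts (XUTs) are degraded in the cytoplasm by the exonuclease Xrn1 and were catalogued in cells lacking it.

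The first 150 bases are shown, 5′ to 3′, of 6 transcripts from among those with the largest changes and of SUT108, which was added after its values were seen because it is the member called in opposite directions in different strains. Capitals mark GTAA and GTAG, words bound by Nrd1, and TCTT, a word bound by Nab3. The sequences come from the RefSeq genome R64 and were not read from the W303 strains used here. They lie at chrIII:309919-310068 (minus strand, XUT0189), chrVII:1082907-1083056 (plus, XUT0567), chrXV:3403-3552 (plus, XUT1330), chrVI:263305-263454 (plus, CUT124), chrIII:299673-299822 (plus, XUT0167), chrXV:1074648-1074797 (minus, XUT1471) and chrVII:16441-16590 (plus, SUT108).
XUT0189: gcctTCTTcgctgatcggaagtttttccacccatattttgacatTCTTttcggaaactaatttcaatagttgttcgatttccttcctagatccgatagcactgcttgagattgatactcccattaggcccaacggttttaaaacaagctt
XUT0567: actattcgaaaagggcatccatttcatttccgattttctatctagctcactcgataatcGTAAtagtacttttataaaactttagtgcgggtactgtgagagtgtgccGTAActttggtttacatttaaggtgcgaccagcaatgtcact
XUT1330: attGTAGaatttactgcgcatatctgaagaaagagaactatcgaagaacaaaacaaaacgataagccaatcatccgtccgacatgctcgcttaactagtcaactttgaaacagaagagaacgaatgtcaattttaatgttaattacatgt
CUT124: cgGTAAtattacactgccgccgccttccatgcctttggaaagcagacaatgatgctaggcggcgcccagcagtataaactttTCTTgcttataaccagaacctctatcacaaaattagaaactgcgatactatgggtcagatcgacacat
XUT0167: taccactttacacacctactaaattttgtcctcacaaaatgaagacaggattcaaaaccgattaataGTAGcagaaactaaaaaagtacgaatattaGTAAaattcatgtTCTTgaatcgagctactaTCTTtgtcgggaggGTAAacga
XUT1471: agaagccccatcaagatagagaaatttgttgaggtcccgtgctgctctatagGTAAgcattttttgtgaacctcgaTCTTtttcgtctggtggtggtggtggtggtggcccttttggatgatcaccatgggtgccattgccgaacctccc
SUT108: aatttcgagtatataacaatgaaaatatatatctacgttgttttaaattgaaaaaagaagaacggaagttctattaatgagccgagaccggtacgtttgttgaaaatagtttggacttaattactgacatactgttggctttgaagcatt

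Within these windows XUT0167 held 2 GTAA, 1 GTAG and 2 TCTT, whereas SUT108 held none of the 3 words. Over the first 300 bases, on the transcript's own strand, GTAA was found in 81.1% of the 37 members called lower in GPD-SIR3 against WT and in 76.9% of all 3359 rows. TCTT was found in 86.5% of the 37 and in 88.4% of all rows. GTAG was found in 40.5% of the 37, in 46.8% of the 77 members under 20 kb that were tested and not called, and in 61.4% of all rows. TATAAA, searched on both strands in the 150 bases before the start, was found in 29.7% of the 37 and in 22.7% of all rows. These shares are descriptions with no test. In the sequences shown no marked word overlapped another, which was not checked over the 300 bases.

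The 298 members comprised 179 XUTs, 80 SUTs and 39 CUTs, of which 64 lay at 0 to 10 kb, 129 at 10 to 20 kb and 105 at 20 to 30 kb. Their lengths ran between 97 and 4603 bases with a median of 653. Of them, 123 overlapped a gene row on the opposite strand and 175 overlapped no gene. In total 125 overlapped another XUT, SUT or CUT on the same strand, so reads can count for more than 1 row, and the 298 rows formed 227 separate stretches. In 2 or more libraries 173 members reached 10 scaled counts (100 XUTs, 63 SUTs and 10 CUTs), and these were tested. The other 125 were not tested, and 12 of these had no reads in any library. The member closest to the 30 kb limit, CUT461 at 29.9 kb, had no reads, and XUT0563 just outside at 30.03 kb had a mean of 3.23 scaled counts.

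Gene reads per library ranged between 7006670 and 18077542, with GPD-SIR3 2 the shallowest library. SIR3 itself had 10730 and 13865 scaled counts in GPD-SIR3, 13132 and 13217 in GPD-SIR3-A2Q, 39.1 and 36.8 in SIR3Δ, and 448 and 484 in WT. It was higher than WT in both overexpressing strains and lower in SIR3Δ. It did not differ by the test between GPD-SIR3 and GPD-SIR3-A2Q (log2 fold change -0.11, limma adjusted p = 0.808). The other 9 silencing genes listed (SIR1, SIR2, SIR4, RAP1, RIF1, RIF2, SAS2, DOT1 and ESC1) gave no call in any comparison. Of 14 genes for decay and termination of non-coding RNA, among them XRN1, RRP6, NRD1 and NAB3, none was called in any comparison, and the smallest adjusted p in the 4 comparisons was 0.433. XRN1 had 3606 and 3111 scaled counts in GPD-SIR3 and 3094 and 3490 in WT, and the groups overlapped. The 4 alpha-specific mating genes (MF(ALPHA)1, MF(ALPHA)2, STE3 and SAG1) summed to 9397 and 8967 in GPD-SIR3, 1004 and 1139 in GPD-SIR3-A2Q, 171 and 146 in SIR3Δ, and 8757 and 8813 in WT. All 4 fell in GPD-SIR3-A2Q and in SIR3Δ against WT, none was called in GPD-SIR3 against WT, and all 4 were higher in GPD-SIR3 than in the A2Q strain. The 5 a-specific genes summed to between 140 and 223 in every library and 0 of 3 tested were called. MFA1 and MFA2 were too low to test. The part of these mating genes in the results below was not tested.

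Overexpression of SIR3 went with low levels of the transcripts nearest the telomeres. The 64 transcripts at 0 to 10 kb summed to 414 and 341 scaled counts in GPD-SIR3, 1511 and 1687 in GPD-SIR3-A2Q, 1916 and 1510 in SIR3Δ, and 1668 and 1286 in WT. Both GPD-SIR3 libraries were below every other library, and the other 3 strains overlapped. The GPD-SIR3 mean of 377 ± 51.5 was 25.6% of the WT mean of 1477 ± 270 (SD, n = 2 each). In bulk RNA, a lower level in every cell and silence in more of the cells cannot be told apart.

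At 10 to 20 kb the 129 transcripts summed to 1712 and 1868 in GPD-SIR3, 2688 and 3254 in GPD-SIR3-A2Q, 3398 and 3165 in SIR3Δ, and 3373 and 2949 in WT. Again both GPD-SIR3 libraries were the lowest, with a mean 56.6% of that of WT. At 20 to 30 kb the sums were 4621 and 5492 in GPD-SIR3, 3723 and 3894 in GPD-SIR3-A2Q, 3023 and 2493 in SIR3Δ, and 6320 and 6053 in WT. This order, with SIR3Δ lowest, was carried by 4 XUTs antisense to the cell-wall protein genes YIL169C and HPF1. Without those 4, the other 101 transcripts at 20 to 30 kb summed to 2000 and 2142 in GPD-SIR3, 2118 and 2101 in GPD-SIR3-A2Q, 2165 and 1830 in SIR3Δ, and 2191 and 1886 in WT. All 4 strains overlapped in that sum. Rows that overlap each other count their shared reads in each.

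**Figure D1:**
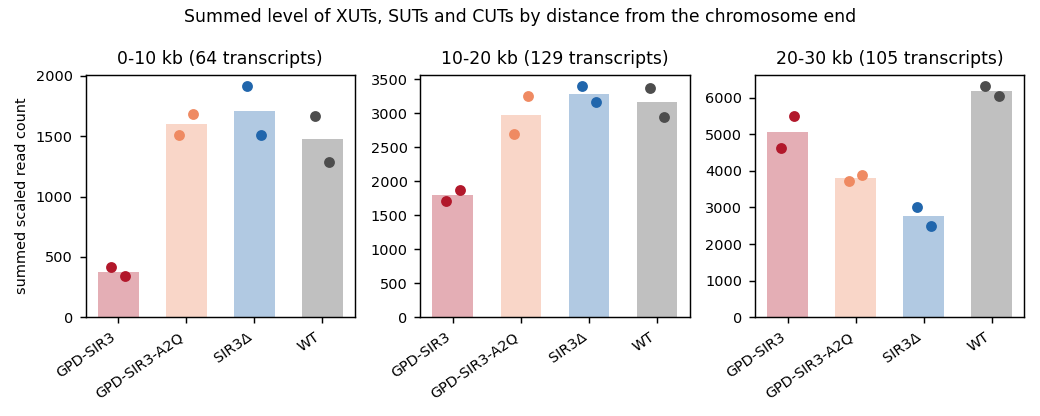
Summed scaled read count of all XUTs, SUTs and CUTs (vertical axis) in each strain, for 3 ranges of distance from the chromosome end; points are single libraries and bars their mean (n = 2). At 0 to 10 kb both GPD-SIR3 libraries lie at 341 and 414 while every other library is at 1286 or above; at 20 to 30 kb SIR3Δ is lowest.

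In GPD-SIR3 the level near the ends was low in all 3 classes. The classes are not independent, because rows of different classes can share reads, as XUT0189 and SUT459 do. XUTs at 0 to 10 kb summed to 254 and 207 in GPD-SIR3, 935 and 1066 in GPD-SIR3-A2Q, 1223 and 933 in SIR3Δ, and 1048 and 762.1 in WT. SUTs in that range summed to 152 and 121 in GPD-SIR3, 496 and 553 in GPD-SIR3-A2Q, 603 and 504 in SIR3Δ, and 554 and 470 in WT. CUTs summed to 7.65 and 13.0 in GPD-SIR3, 80.5 and 67.7 in GPD-SIR3-A2Q, 89.9 and 73.1 in SIR3Δ, and 65.3 and 53.5 in WT. In each class the GPD-SIR3 libraries were the 2 lowest of 8, though the CUT sums rest on only 17 and 13 reads in that strain.

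Fewer transcripts reached 10 scaled counts in GPD-SIR3 at 0 to 10 kb, and at 20 to 30 kb similar numbers did in all strains. More members were without reads in GPD-SIR3 in each distance range. No read in either library was found for 42 of the 298 members in GPD-SIR3, 17 in GPD-SIR3-A2Q, 15 in SIR3Δ and 19 in WT. In the same order these were 11, 1, 0 and 1 at 0 to 10 kb. They were 21, 11, 10 and 13 at 10 to 20 kb, and 10, 5, 5 and 5 at 20 to 30 kb. A mean of at least 10 scaled counts was reached at 0 to 10 kb by 7 of 64 members in GPD-SIR3, 33 in GPD-SIR3-A2Q, 38 in SIR3Δ and 36 in WT. At 20 to 30 kb it was reached by 48 of 105 members in GPD-SIR3, 53 in GPD-SIR3-A2Q, 48 in SIR3Δ and 47 in WT. The median member at 0 to 10 kb had 1.81 scaled counts in GPD-SIR3, 12.6 in GPD-SIR3-A2Q, 14.6 in SIR3Δ and 11.6 in WT. GPD-SIR3 2 was the shallowest library, while GPD-SIR3 1, with 15575410 gene reads, was deeper than WT 2 and both libraries of the A2Q strain. The part of depth in these counts was not tested.

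In the test of GPD-SIR3 against WT, 37 of the 173 tested members were lower and none was higher at a Benjamini-Hochberg adjusted p below 0.05 (limma on log2(scaled count + 1), all 8566 testable features adjusted together). Over all features 1.39% were lower and 0.163% higher, and of the XUTs, SUTs and CUTs 30 kb or more from an end 0.191% were lower. Before adjustment 5 members were higher at p under 0.05, and neither edgeR nor DESeq2 called one higher (0 each). Libraries of the 2 strains did not overlap, with GPD-SIR3 lower, for 94 of the 173, against 16.8% of all features. The 37 rows formed 28 separate stretches and lay between 0.989 and 19.7 kb from their end. The fitted fall exceeded 4-fold for 33 and 8-fold for 22. With 2 libraries a strain, leaving out either WT library lowered the count to 12 (without WT 1) or 15 (without WT 2). edgeR called 35 and DESeq2 54 of the members lower.

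By distance, 17 of 41 tested members were lower at 0 to 10 kb, with a median log2 fold change of -2.48 (-2.38 with the 3 members without reads in GPD-SIR3 set at their bound). At 10 to 20 kb 20 of 73 were lower, with a median of -1.20. At 20 to 30 kb limma called none of 59 and the median was -0.03; 5 were lower and 3 higher at an unadjusted p under 0.05, while edgeR called 1 lower and DESeq2 3. Between 30 and 50 kb limma called 0 of 102 XUTs, SUTs and CUTs, with 13 at an unadjusted p under 0.05 in either direction. Beyond 50 kb 3 of 1467 (0.204%) were lower. The medians of these ranges were -0.07 and -0.06. The median over all features was 0.02. Genes showed 21 of 38 tested lower at 0 to 10 kb, 18 of 81 at 10 to 20 kb, and 2 lower and 2 higher of 121 at 20 to 30 kb. Differences between the distance ranges were not tested.

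By class, 18 of 100 tested XUTs, 16 of 63 SUTs and 3 of 10 CUTs were lower. Transcripts reading toward the chromosome end gave 18 of 81 and those reading away from it 19 of 92. Among members with no gene overlap 28 of 103 were lower, with a median of -1.21, and among those antisense to a gene 9 of 70, with a median of -0.21. Under 20 kb these shares were 28 of 79 and 9 of 35. By level, of the 23 tested members under 20 kb with a mean of at least 50 scaled counts 13 were lower, with a median of -1.48. Of the 91 with a lower mean 24 were, with a median of -1.82. The part of read depth in these counts was not tested.

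**Figure D2:**
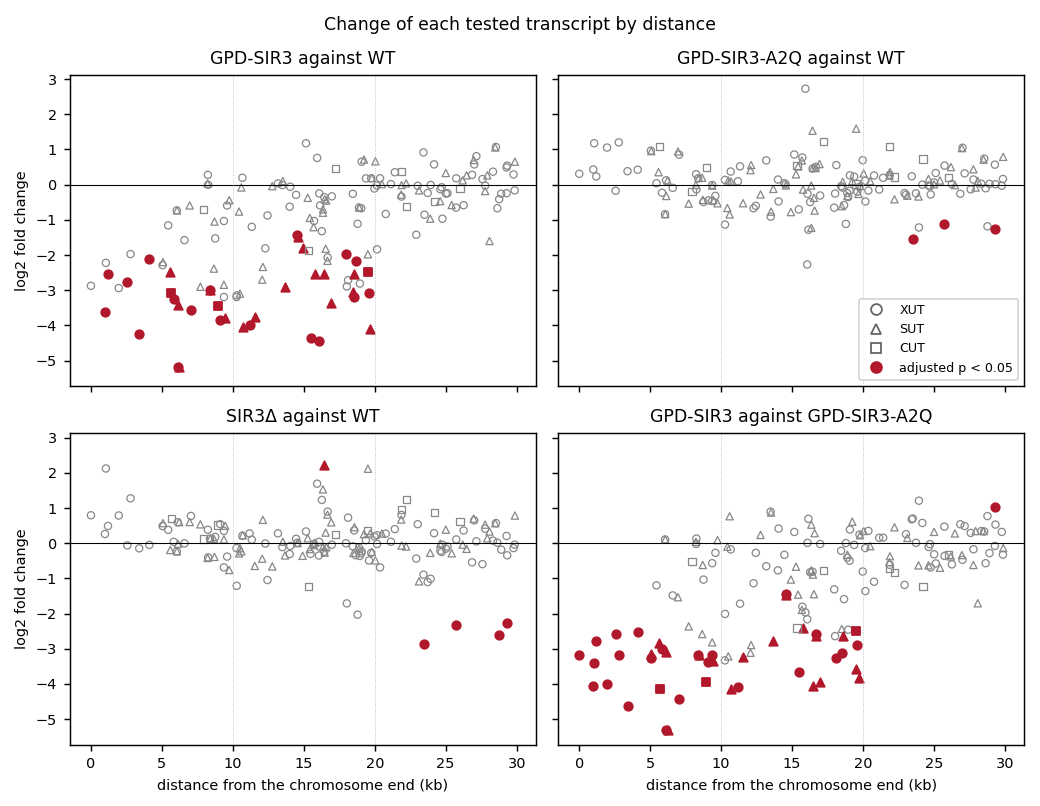
Log2 fold change (vertical axis) of each of the 173 tested transcripts against distance from the chromosome end in kb, in 4 panels for the 4 comparisons; filled red symbols have an adjusted p below 0.05. Red symbols in both GPD-SIR3 panels lie low and under 20 kb, except 1 high at 29.3 kb against GPD-SIR3-A2Q, while those of GPD-SIR3-A2Q and SIR3Δ against WT lie mostly past 20 kb.

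The largest fall was that of XUT0189 at chrIII:308274-310068, whose distance to the right telomere is 6.12 kb. It runs antisense to ADH7, an alcohol dehydrogenase gene, and overlaps 999 bases of it. XUT0189 had 1.80 and 0 scaled counts in GPD-SIR3, 56.6 and 76.5 in GPD-SIR3-A2Q, 93.4 and 89.6 in SIR3Δ, and 58.8 and 61.7 in WT. GPD-SIR3 was nearly without reads (4 and 0) and apart from the other 3 strains. The log2 fold change against WT was -5.19 ± 0.46 (SE, limma adjusted p = 3.68e-04). SUT459 covers almost the same bases on the same strand with nearly the same reads and is not a second observation. ADH7 had 4.05 and 4 in GPD-SIR3 and 15.6 and 16.5 in WT, apart but not called (log2 fold change -1.76, adjusted p = 0.053).

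Close to the left end of chromosome XV, XUT1330 at 3.40 kb had no reads in either GPD-SIR3 library, 21.6 and 25.5 scaled counts in GPD-SIR3-A2Q, 11.6 and 21.8 in SIR3Δ, and 9.94 and 31.2 in WT. The GPD-SIR3 libraries were below all others, and WT spanned the range of the rest. With a floor of 3 reads per library, GPD-SIR3 was at least 9.45-fold lower than WT (limma adjusted p = 0.0077). The call was lost without WT 2 (adjusted p = 0.0826), under a pseudocount of 10 and in a fit of these 2 strains alone. Floors and intervals here cover counting error only.

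CUT124 lies 5.66 kb from the right end of chromosome VI and 347 bases before IRC7, a beta-lyase gene for sulfur compounds, on the same strand. CUT124 had 0.450 and 0 scaled counts in GPD-SIR3, 22.7 and 18.1 in GPD-SIR3-A2Q, 13.6 and 17.4 in SIR3Δ, and 7.35 and 11.2 in WT. A single read in GPD-SIR3 stood against 36 in WT, a ratio of 3.46% (exact 95% interval 0.0853% to 20.5%; limma adjusted p = 0.018). This call was lost without GPD-SIR3 2, SIR3Δ 2, WT 1 or WT 2 (largest adjusted p = 0.173), under a pseudocount of 10 and in a fit of the 2 strains alone. IRC7 had 141 and 124 in GPD-SIR3 and 1898 and 1642 in WT, and it fell as well (log2 fold change -3.73).

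XUT0567 lies 7.05 kb from the right end of chromosome VII and is divergent from COS6, a member of a subtelomeric gene family, with 178 bases between them. XUT0567 had 4.50 and 1 scaled counts in GPD-SIR3, 66.5 and 73.8 in GPD-SIR3-A2Q, 67.0 and 65.4 in SIR3Δ, and 48.8 and 29.99 in WT. GPD-SIR3 stood apart below the rest, and WT was below both other strains. The log2 fold change against WT was -3.57 ± 0.47 (SE, limma adjusted p = 0.00536, 0.0527 without WT 1), and the call was also lost with only the 2 strains. COS6 had 51.7 and 51.0 in GPD-SIR3 and 295 and 283 in WT, and it fell too (-2.47). Of the 50-base stretches of COS6 38.3% occur elsewhere in the genome, so some of its reads may belong to other copies.

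SUT500, 8.41 kb from the left end of chromosome V, had the highest mean of the SUTs at 0 to 10 kb, with 6.75 and 11 scaled counts in GPD-SIR3, 93.3 and 80.5 in GPD-SIR3-A2Q, 87.2 and 79.4 in SIR3Δ, and 96.0 and 60.0 in WT. Only GPD-SIR3 was apart, and the fall against WT (-2.996 ± 0.31 SE, limma adjusted p = 0.00125) held without any 1 library. SUT147, 10.7 kb from the left end of chromosome VIII, had 3.15 and 2 in GPD-SIR3, 56.6 and 66.4 in GPD-SIR3-A2Q, 72.1 and 63.5 in SIR3Δ, and 55.8 and 59.4 in WT. Its log2 fold change of -4.05 ± 0.29 (SE, limma adjusted p = 1.46e-04) was also kept without any 1 library. Its nearest gene, PAU13 of the seripauperin family, had at most 1.16 scaled counts in any library and was not tested. Of the 50-base stretches of PAU13 78.0% occur elsewhere in the genome, so its low count does not show that it is silent.

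**Figure D3:**
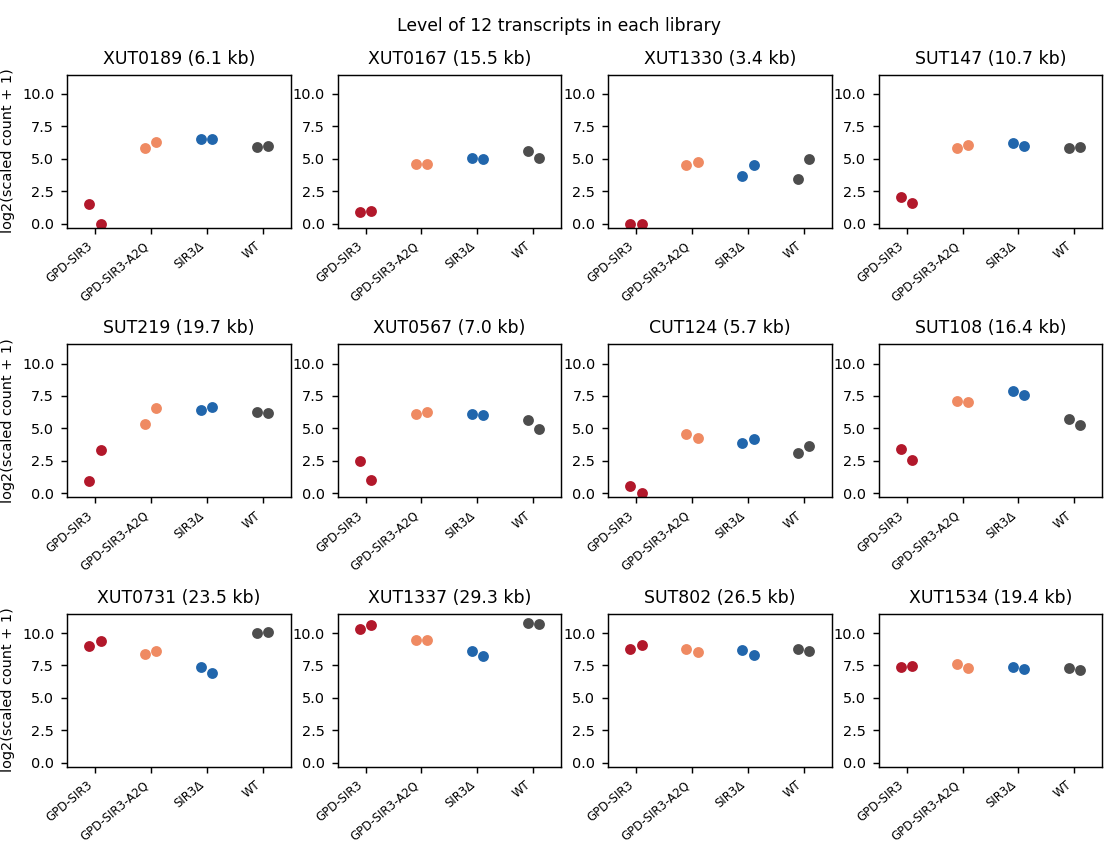
Level of 12 transcripts in each library as log2(scaled count + 1) on a shared vertical axis, with 2 points per strain and the distance from the chromosome end in the panel titles. The first 8 panels show transcripts under 20 kb with GPD-SIR3 lowest. In the SUT108, CUT124 and XUT0567 panels GPD-SIR3-A2Q and SIR3Δ also lie above WT. XUT0731 and XUT1337 are lowest in SIR3Δ. SUT802 and XUT1534 were called in no comparison, with both GPD-SIR3 points slightly above those of WT.

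The called falls reached nearly to 20 kb, and limma called none past it. XUT0167, on the right arm of chromosome III at 15.5 kb, had 0.900 and 1 scaled counts in GPD-SIR3, 23.3 and 23.5 in GPD-SIR3-A2Q, 31.8 and 30.5 in SIR3Δ, and 47.1 and 31.7 in WT. The 3 reads of GPD-SIR3 stood against 163 of WT, a ratio of 2.29% (exact 95% interval 0.468% to 6.82%; limma adjusted p = 3.46e-04), and the call held without any 1 library. Its convergent neighbour YCR099C, 116 bases away, had 4.05 and 8 in GPD-SIR3 and 70.5 and 48.2 in WT and fell too (-3.14).

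XUT1471, 16.1 kb from the right end of chromosome XV and antisense to YOR389W, also had low values in the A2Q strain. XUT1471 had 0.900 and 0 scaled counts in GPD-SIR3, 2.92 and 8.72 in GPD-SIR3-A2Q, 20.5 and 24.2 in SIR3Δ, and 25.9 and 31.7 in WT. The ratio of GPD-SIR3 to WT was 2.19% (exact 95% interval 0.261% to 8.08%; limma adjusted p = 0.00545), and the call was lost without WT 1 or WT 2 (largest adjusted p = 0.0682). GPD-SIR3-A2Q against WT gave a log2 fold change of -2.27 that was not called (adjusted p = 0.299), though DESeq2 called it. Of its 50-base stretches 19.3% occur elsewhere in the genome, so some of its reads may belong to other copies.

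SUT219, the called member farthest from its end at 19.7 kb on the left arm of chromosome XI, had 0.900 and 9 scaled counts in GPD-SIR3, 39.6 and 94.6 in GPD-SIR3-A2Q, 82.6 and 97.4 in SIR3Δ, and 75.2 and 72.3 in WT. The GPD-SIR3 libraries differed 10-fold between themselves but were the 2 lowest (-4.10 ± 0.68 SE, limma adjusted p = 0.0193, up to 0.124 without WT 1 or WT 2), and the call was lost with only the 2 strains. Its neighbour JEN1, a lactate transporter gene 1089 bases away, had 46.3 and 52.0 in GPD-SIR3 and 46.7 and 60.0 in WT and was not called (-0.11). CUT353 at 19.5 kb on the right arm of chromosome XIV was called (-2.48, adjusted p = 0.0462), but the call was lost on leaving out any of the 8 libraries (largest adjusted p = 0.390).

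Several abundant members had overlapping or nearly overlapping levels in all strains. XUT1534, 19.4 kb from the left end of chromosome XVI and near the S-adenosylmethionine permease gene SAM3, had 164 and 172 scaled counts in GPD-SIR3, 194 and 156 in GPD-SIR3-A2Q, 168 and 148 in SIR3Δ, and 155 and 142 in WT (GPD-SIR3 against WT 0.18 ± 0.17 SE, limma adjusted p = 0.845). XUT0430 at 20.2 kb on chromosome V had 93.6 and 98.0 in GPD-SIR3, 111 and 99.9 in GPD-SIR3-A2Q, 120 and 109 in SIR3Δ, and 122 and 78.2 in WT. SUT802, antisense to the ferric reductase family gene FRE5 at 26.5 kb, had 443 and 534 in GPD-SIR3, 432 and 372 in GPD-SIR3-A2Q, 413 and 316 in SIR3Δ, and 429 and 381 in WT. None of these was called in any comparison, which does not show that their levels were equal.

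Among abundant members closer to the end, XUT1189 at 5.44 kb on chromosome XIII had 43.2 and 32 in GPD-SIR3, 103 and 73.1 in GPD-SIR3-A2Q, 186 and 64.4 in SIR3Δ, and 181 and 38.8 in WT. Its libraries differed widely within WT and within SIR3Δ, and in every strain library 1 was the higher. GPD-SIR3 against WT was not called for XUT1189 (limma adjusted p = 0.699). XUT0139, antisense to the sulfate permease gene SUL1 at 18.9 kb, had 162 and 155 in GPD-SIR3, 199 and 225 in GPD-SIR3-A2Q, 234 and 223 in SIR3Δ, and 266 and 234 in WT. GPD-SIR3 was apart below the others by a small margin that was not called (-0.65 ± 0.15 SE, adjusted p = 0.092). SUT430 at 16.6 kb on chromosome XVI had 212 and 328 in GPD-SIR3, 162 and 288 in GPD-SIR3-A2Q, 329 and 339 in SIR3Δ, and 364 and 359 in WT, with no call. CUT700 at 26.0 kb, the most abundant CUT past 20 kb, had between 10 and 22.3 in all libraries and no call.

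Set per base of length, the most abundant members named were XUT1336 with a mean of 681 scaled counts per kb and XUT0731 with 276. The mean was 172 per kb for SUT108, 69.7 for XUT0567, 30.5 for XUT0189 and 20.5 for CUT124. The median over members was 16.6 per kb at 0 to 10 kb, 14.7 at 10 to 20 kb and 13.2 at 20 to 30 kb.

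Chromosome ends differed in how many of their transcripts were called. Of 31 ends with members, 29 held a tested one, and at 15 of these at least 1 was lower in GPD-SIR3 than in WT. At all 15 a gene under 30 kb was lower as well, and 21 ends had such a gene. The farthest lower transcript of an end lay between 1.20 and 19.7 kb, with a median of 15.5 kb. The left ends of chromosomes XI and XV had 5 lower members each, of 12 and 15 tested, in 3 and 4 separate stretches. At the left end of chromosome VIII all 4 tested members were lower, but they formed only 2 separate stretches. At the right ends of chromosomes XVI and XIII none of 11 and none of 7 tested members was, although XVI had members tested at 6.59 kb and XIII at 5.44 kb. At the right end of chromosome III, 3 of 7 (2 stretches) were lower against WT and all 7 against GPD-SIR3-A2Q. Differences between ends were not tested. Positions and distances are those of the reference, and whether the chromosome ends of these W303 strains match it was not checked.

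**Figure D4:**
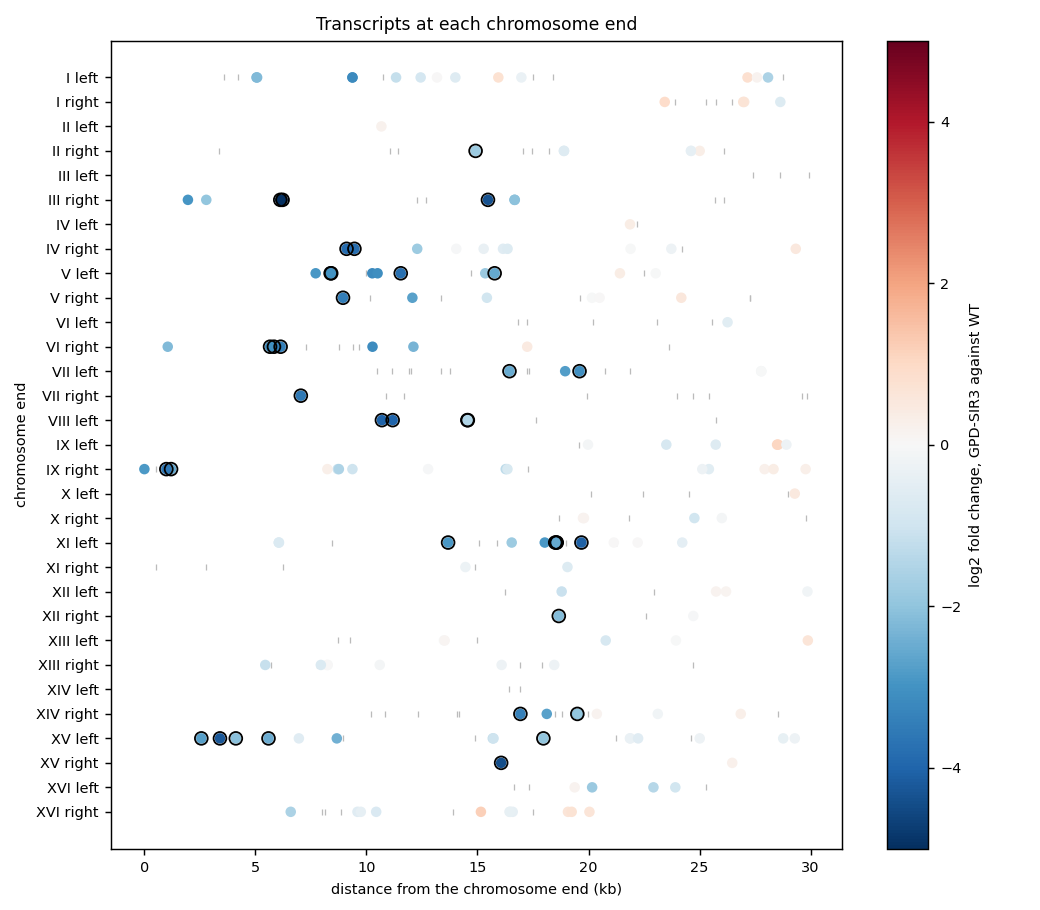
Each row is a chromosome end and the horizontal axis the distance from it in kb; coloured points are tested transcripts, with colour for the log2 fold change of GPD-SIR3 against WT, ringed where called lower, and grey ticks are transcripts too low to test. Ringed points occur at 15 of 29 ends with tested transcripts, all under 20 kb, and none is at the right ends of chromosomes XIII and XVI.

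Transcripts without gene overlap mostly fell together with the nearest gene. Of the 28 such members lower in GPD-SIR3 against WT, 24 had a tested nearest gene, and in 20 cases (13 different genes) that gene was lower and in none higher. Of the 75 not called, 71 had a tested nearest gene and in 20 cases it was lower. Of the 43 tested members divergent from their nearest gene 14 were lower, of the 23 lying before it on the same strand 8, of the 22 convergent 5, and of the 15 lying after it on the same strand 1. Of the 9 lower members antisense to a gene, 6 had a tested gene, with a median log2 fold change of the gene of -2.14. In 2 cases (1 gene) that gene was lower and in none higher. Of the 61 antisense members not called, 53 had a tested gene, which was lower in 4 cases and higher in 4. Against GPD-SIR3-A2Q, 10 antisense members were lower, and the gene was lower in all 6 cases where it was tested (4 different genes). Gene rows are mostly coding sequence, 96.8% of them a multiple of 3 in length, so a transcript next to a gene may share reads with that gene's untranslated ends.

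**Figure D5:**
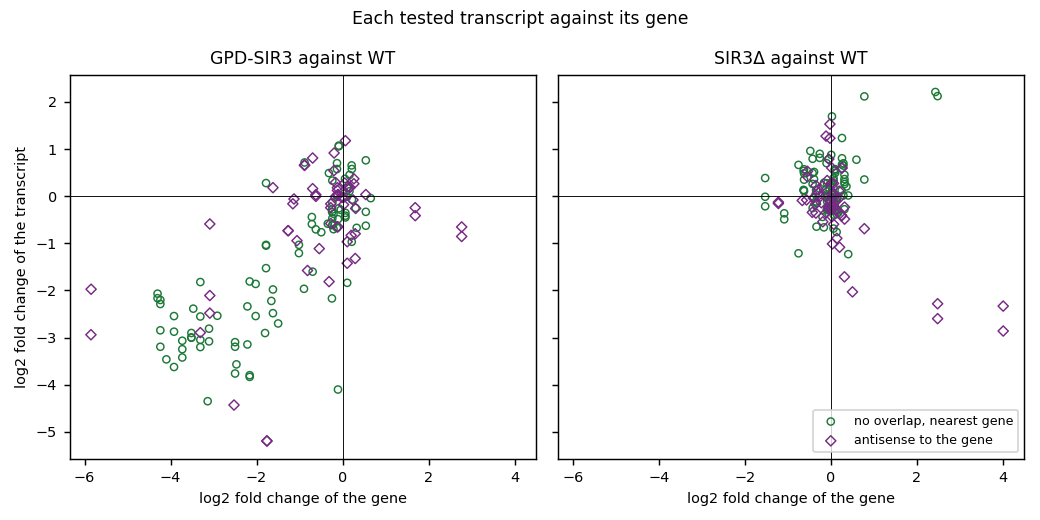
Log2 fold change of each tested transcript (vertical axis) against that of the gene it is antisense to, or else its nearest gene (horizontal axis), for GPD-SIR3 against WT (left) and SIR3Δ against WT (right). In GPD-SIR3 many points lie low on both axes; in SIR3Δ the 4 called antisense transcripts lie low while their genes, YIL169C and HPF1, lie high.

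The A2Q strain, at a similar SIR3 RNA level, had few lower members. Set directly against GPD-SIR3-A2Q, GPD-SIR3 had 43 lower members and 1 higher of 173 tested, where 1.32% of all features were lower, 0.49% higher, and of XUTs, SUTs and CUTs 30 kb or more from an end 0.0637% were lower and 0.319% higher (0.273% higher beyond 50 kb). The lower ones comprised 24 of 41 tested members at 0 to 10 kb (median log2 fold change -2.83, or -2.82 with bounds), 19 of 73 at 10 to 20 kb (-1.31) and none of 59 at 20 to 30 kb. In that last range 2 were lower before adjustment at p under 0.05, while edgeR called 0 and DESeq2 1. The 43 rows were 31 stretches. Without GPD-SIR3-A2Q 1 the count was 20 and without GPD-SIR3-A2Q 2 it was 14.

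XUT0189 again had the largest fall (-5.32 ± 0.46 SE, limma adjusted p = 3.24e-04). For XUT1330 the GPD-SIR3 level was at least 10.8-fold below that of the A2Q strain (adjusted p = 0.00403, 0.0517 without GPD-SIR3-A2Q 2), and XUT0567 fell by 4.42 on the log2 scale (adjusted p = 0.0011). CUT124 had 1 read against 66 (adjusted p = 0.00253). The comparison shares its GPD-SIR3 libraries with that against WT, so the lists are not independent: 32 members were in both, 86.5% of the 37 and 74.4% of the 43.

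GPD-SIR3-A2Q against WT gave 3 lower and no higher members, where 0.444% of all features were lower and 0.0934% higher. Before adjustment 7 members were higher at p under 0.05, while edgeR and DESeq2 called 1 each, which was SUT108. The strains did not overlap for 33 members with GPD-SIR3-A2Q higher and 30 with it lower, against 17.2% and 21.6% of all features. At 0 to 10 kb limma, edgeR and DESeq2 called 0 of 41, 3 were higher and 0 lower at p under 0.05 before adjustment, and the median log2 fold change was 0.11. Over the 37 members lower in GPD-SIR3 against WT, the change of GPD-SIR3-A2Q against the same WT libraries had a median of 0.01 and ran between -2.27 (XUT1471) and 1.53 (SUT108), with 18 of 37 below 0. The 3 lower members were XUT0731 and XUT0732, antisense to YIL169C, and XUT1337, antisense to HPF1. Each of these calls was lost without GPD-SIR3-A2Q 1, WT 1 or WT 2, and XUT1337 also without GPD-SIR3-A2Q 2 (largest adjusted p = 0.107, 0.192 and 0.117 in the order named).

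Few of these transcripts were called where SIR3 was deleted. In SIR3Δ against WT, 1 of 173 tested members was higher and 4 were lower, where 0.14% of all features were higher and 0.841% lower, and 1.08% of XUTs, SUTs and CUTs 30 kb or more from an end were lower. At 0 to 10 kb limma called none of 41, with a median log2 fold change of 0.18; 2 were higher before adjustment at p under 0.05, while edgeR and DESeq2 called 1 each. The strains did not overlap for 44 of the 173 with SIR3Δ higher and 33 with it lower, against 14.3% and 24.8% of all features. At 0 to 10 kb they did not overlap for 15 of the 41 with SIR3Δ higher and 4 with it lower, and 14 of the 41 changes were below 0. A missing call with 2 libraries a strain does not show equal levels, and the rows at 0 to 10 kb are not all independent. The 37 members lower in GPD-SIR3 had a median change of 0.13 in SIR3Δ against the same WT libraries, between -0.65 and 2.21.

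The higher member was SUT108, 16.4 kb from the left end of chromosome VII at chrVII:16441-17017. It starts 134 bases after the end of the alcohol dehydrogenase gene ADH4 on the same strand, and its reads cannot be told apart from a longer ADH4 transcript. SUT108 had 9.45 and 5 scaled counts in GPD-SIR3, 136 and 127 in GPD-SIR3-A2Q, 240 and 186 in SIR3Δ, and 52.7 and 38.2 in WT. The 4 strains did not overlap, and the order of levels was GPD-SIR3, WT, GPD-SIR3-A2Q, SIR3Δ. Against WT it rose in SIR3Δ (2.21 ± 0.31 SE, limma adjusted p = 0.0102, up to 0.119 without SIR3Δ 1, SIR3Δ 2 or WT 2) and fell in GPD-SIR3 (-2.54, adjusted p = 0.00358). GPD-SIR3-A2Q against WT was 1.53 with no call (adjusted p = 0.12). ADH4 had 46.3 and 33.0 in GPD-SIR3, 1072 and 1092 in GPD-SIR3-A2Q, 1704 and 1558 in SIR3Δ, and 313 and 290 in WT, and all 3 strains were called against WT in the same directions as the SUT108 values.

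The 4 lower members were the antisense XUTs of YIL169C and HPF1, at 23.5 to 29.3 kb. XUT0731 and XUT1336 lie wholly opposite their gene. XUT0732 overlaps YIL169C by 378 of its 2835 bases, and XUT1337 overlaps HPF1 by 2318 of its 4603. XUT0731 had 510 and 655 scaled counts in GPD-SIR3, 330 and 381 in GPD-SIR3-A2Q, 168 and 122 in SIR3Δ, and 1017 and 1075 in WT (SIR3Δ against WT -2.86 ± 0.19 SE, limma adjusted p = 4.52e-05). YIL169C on the other strand had 1484 and 1375 in GPD-SIR3, 2296 and 1716 in GPD-SIR3-A2Q, 3993 and 2847 in SIR3Δ, and 235 and 185 in WT, and rose in all 3 strains. XUT1337 had 1273 and 1613 in GPD-SIR3, 705 and 703 in GPD-SIR3-A2Q, 400 and 303 in SIR3Δ, and 1724 and 1671 in WT (SIR3Δ against WT -2.28 ± 0.16 SE, adjusted p = 8.04e-05). HPF1 had 827 and 1230 in GPD-SIR3, 1502 and 1673 in GPD-SIR3-A2Q, 1904 and 1607 in SIR3Δ, and 259 and 376 in WT, and rose in all 3 strains.

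In both pairs GPD-SIR3 lay between WT and GPD-SIR3-A2Q for the antisense transcript, and SIR3Δ was lowest. XUT1337 was also the 1 member with a higher call for GPD-SIR3 over the A2Q strain (1.02 ± 0.16 SE, limma adjusted p = 0.0126, up to 0.101 without GPD-SIR3 2 or either library of the A2Q strain). XUT1336, 386 bases long and also antisense to HPF1, fell in SIR3Δ (-2.60), but 40.4% of its 50-base stretches occur elsewhere in the genome. For the A2Q strain against WT, XUT1336 gave -1.18 and no call (limma adjusted p = 0.177). The alpha-specific genes given above fell in GPD-SIR3-A2Q, where 3 of the 4 XUTs were called lower, and in SIR3Δ, where all 4 were. In GPD-SIR3 against WT none of the alpha-specific genes and none of the 4 XUTs was called. The XUT changes there were -0.85 (XUT0731), -0.65 (XUT0732), -0.41 (XUT1336) and -0.24 (XUT1337). The part of the alpha-specific genes in the result was not tested. In all, 121 of the 173 tested members were called in none of the 4 comparisons.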

How the data were processed

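Per the labels' protocols, total RNA was taken with phenol and chloroform, fragmented with zinc and prepared with a SOLiD total RNA kit for paired-end reads. The submitters' processing notes name TopHat 1.4.1 and genome build R64. For the counting tool, its strand setting and its handling of multiply matching reads, the entry is: not given in the sources used here. The values of a non-coding row lying within a gene on the other strand were largely unrelated to those of the gene (Spearman -0.196 across 1176 rows, which are not independent), and strands were therefore treated as counted apart.

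The authors deposited counts for GPD-SIR3 2 and, for the other 7 libraries, a signal, namely counts times 1 factor per library, with genes summing to 7006670 in each. Whole reads were recovered for 100% of values (tolerance 0.01 of a read), giving 9847370 to 26668086 reads over all features. Another 16 columns of per-sample values were not used. Of 5775 genes on chromosomes, 5770 matched the reference annotation by name and 5738 had equal coordinates.

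The plan named limma-trend for scaled values and edgeR for plain counts. As the table is scaled, the main test was limma-trend (limma 3.58.1, R 4.3.3) on log2 of the deposited value + 1. All 8566 features reaching 10 in 2 or more libraries entered 1 model of the 4 strains. Tests were two-sided with Benjamini-Hochberg adjustment over all features. Fold changes on this scale understate the change of low rows. An exact permutation of 2 against 2 libraries cannot go below p = 0.333, so no such test is given. The step was tested on simulated data. Alternatives were edgeR 4.0.16 and DESeq2 1.42.0 on the recovered reads, other scaling, pseudocount, filters and feature sets, the replicate number as a block, and leaving out each library. Intervals are exact at 95%, and a group with no reads was set at a floor of 3 reads per library, averaged over the 2.

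Named members were, per comparison, the 6 largest called changes in each direction (mean of at least 10, strains not overlapping) and the farthest called member. The most abundant of each class and distance range and the 2 smallest changes with a mean of at least 100 were added. Genes named are their antisense or nearest genes. The members, the motifs and the gene lists were chosen with earlier results of these data known. Distances used the last row of each chromosome; from the reference ends 291 rows qualified.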

Additional observations from a re-analysis of the deposited data

How the results depend on the processing

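No call of a member changed sign under any alternative. With 37 members lower in GPD-SIR3 against WT, the count was 11 with only rows of a mean of at least 50, where just 37 members are tested, and 11 with only the 2 strains in the fit; leaving out 1 library gave 12 to 33. Of the 37 calls, 10 were kept in every alternative in which the member was still tested. For GPD-SIR3 against GPD-SIR3-A2Q the 43 lower became 10 and 17 under those 2 settings and 14 to 37 without 1 library, and the 1 higher became 0 to 2. For GPD-SIR3-A2Q against WT the 3 lower became 0 with non-coding rows alone, 5 with DESeq2 and 0 to 4 without 1 library, and the count of 0 higher became 1 with a pseudocount of 10, the replicate block, edgeR or DESeq2, and 0 to 1 without 1 library. For SIR3Δ against WT the 1 higher became 2 with a pseudocount of 10, no filter, edgeR or DESeq2, and 0 to 1 without 1 library; its 4 lower were kept, except that 3 are left when members repeated in the genome are removed. Beyond what the settings themselves remove, the cause was not tested.

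Libraries with the same number did not deviate together in every pair of strains (correlations between -0.03 and 0.35), so the numbers were not taken to pair the libraries; whether the libraries of some strains share a batch is not given in the labels. With that number as a replicate block, GPD-SIR3 had 40 members lower than WT and 42 lower and 1 higher than GPD-SIR3-A2Q, GPD-SIR3-A2Q had 3 lower and 1 higher than WT, and SIR3Δ 4 lower and 1 higher.

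TMM scaling, edgeR and DESeq2 moved the median of all features by between -0.05 and 0.06 on the log2 scale. With 2 libraries per strain, and a median of 17.5 scaled counts over tested members, moderate changes of most members are not detectable, and 125 members were too low to test.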
